A study of Monodelphis domestica with 5 samples.

Results

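Histone modification peaks were examined around the opossum regions that the study lists for KCNK9, WT1 and COPG2, 3 genes whose orthologues are imprinted in at least some eutherian tissues. The members were all deposited peaks of H3K4me3, H3K9Ac, H3K9me3 and H3K27me3 that reached within 200000 bases of the 3' UTR region listed for each gene on MonDom5. This gave 117 of the 308249 peaks in the 4 lists, 25 at KCNK9, 38 at WT1 and 54 at COPG2. The study profiled primary ear fibroblasts of a single adult male *Monodelphis domestica* from a cross of an LL1 female with an LL2 male, at passages 4 to 6 by the sample labels (fewer than 5 by the methods). Native ChIP-seq, which uses chromatin cut with micrococcal nuclease and not cross-linked, gave a single library for each antibody, and peaks were found against 1 library of input chromatin. Pooling of chromatin is noted in the labels for sisters only. There was no second animal, condition or replicate. Replicate error is therefore unknown for every value, no test between marks or loci was possible, and the lists do not hold the depth of the libraries, for which the study's read numbers were not used here.

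Imprinted genes are expressed mainly from the allele of one parent. At such genes in eutherians, marks of activation (MOAs) such as H3K4me3 and H3K9Ac typically lie on the expressed allele, and marks of repression (MORs) such as H3K9me3 and H3K27me3 on the silent one. H3K4me3 and H3K9Ac are usual at active promoters, H3K9me3 is known for compact heterochromatin and repeats, and H3K27me3 is laid down by Polycomb complexes. KCNK9 encodes the potassium channel TASK3, expressed from the maternal allele in eutherian brain. WT1 encodes a zinc finger transcription factor needed for kidney and gonad development. COPG2 encodes a subunit of the COPI coat, which carries vesicles from the Golgi to the endoplasmic reticulum, and is the neighbour of MEST, a hydrolase gene expressed from the paternal allele in eutherians. Since ChIP-seq here did not separate alleles, overlapping MOA and MOR peaks may come from the same or different alleles or cells, which cannot be told apart.

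The listed regions lie on chromosome 3 from 421755076 to 421756076 for KCNK9, on chromosome 5 from 250270154 to 250271154 for WT1 and on chromosome 8 from 190464437 to 190465437 for COPG2. Of 84 symbols on a list of eutherian imprinted genes, these were the 3 found among 178 candidates in the study's list, IGF2R left out. The study chose its candidates from these libraries for MOAs, H3K9me3 and a CpG island at the promoter. Its text gives a slightly different total. Marking by all 3 modifications near these genes therefore follows in part from that choice. Gene starts on MonDom5 were not used here, so no peak was assigned to a promoter. The windows also held other candidates. A gene without a symbol has its 3' UTR region from 421671148 to 421672148, 82.9 kb below the KCNK9 region. The region of ADM, which encodes the vasodilator peptide adrenomedullin, runs from 250096219 to 250097219, 173 kb below the WT1 region, and a region listed as U6 lies 162 kb below it. In the RefSeq gene order of another opossum assembly, mMonDom1, KCNK9 is next to TRAPPC9 and COPG2 is between MEST and TSGA13. There, WT1 is flanked by EIF3M and RCN1, and 65 protein-coding genes separate it from ADM. The listed positions and this gene order thus disagree on how far WT1 lies from ADM. Whether the symbol or an assembly is at fault was not tested, and "WT1 region" below means only the listed position. The fibroblast label could not be checked by RNA. Within 10000 bases of the region listed for VIM, the mesenchymal intermediate filament gene, both MOAs had peaks at the top of the score scale. H3K9me3 also had a peak there, with a score of 388. VIM is itself a candidate chosen for such marks, and peaks at other fibroblast genes were not looked up here.

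Over the whole windows, the loci differed mainly in their MOA peaks and hardly in their number of H3K9me3 peaks. H3K4me3 had 5 peaks at KCNK9, 14 at WT1 and 21 at COPG2, which covered 4.57%, 12.8% and 23.3% of the windows of 401 kb. H3K9Ac followed the same order, with 4, 8 and 13 peaks over 1.74%, 8.25% and 12.3% of the window. H3K9me3 had 12, 13 and 12 peaks over 5.94%, 5.31% and 6.04%. H3K27me3 had 4, 3 and 8 peaks over 2.09%, 0.970% and 2.77%. Part of the MOA coverage lay far out. The widest H3K4me3 peak was 167 kb from the WT1 region and 155 kb from that of COPG2. Within 100000 bases the 4 marks together had 12, 11 and 23 peaks at KCNK9, WT1 and COPG2. Peaks of single marks were not counted at that distance. None of the 117 peaks touched the 3' UTR region listed for KCNK9, WT1 or COPG2. The nearest peak was one of H3K9me3 at COPG2, 12.3 kb above the region, and the nearest at KCNK9 and WT1 were H3K4me3 peaks 18.4 kb below and 18.2 kb above. At KCNK9 the region lay inside a stretch of 127 kb without a peak of any mark, and at WT1 inside one of 77.1 kb. Across the assembly, the median window of this length was covered to 4.08% by H3K4me3, 2.24% by H3K9Ac, 4.71% by H3K9me3 and 0.342% by H3K27me3. How often other regions are free of peaks, or lie in such stretches, was not computed. Nothing is therefore read from the absence of peaks at the listed regions.

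**Figure D1:**
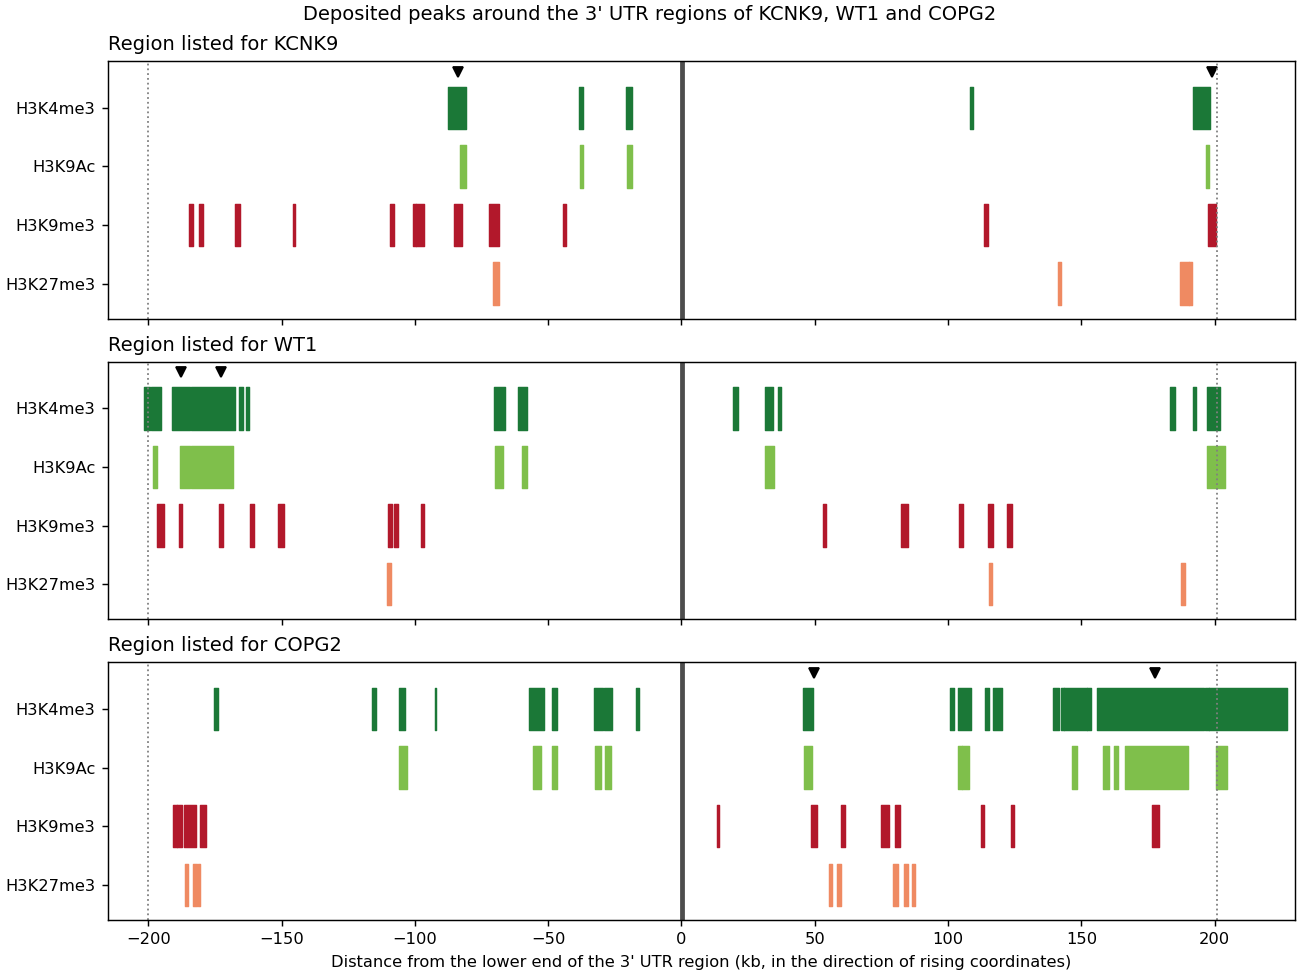
Peaks of the 4 marks (rows) by distance in kb from the lower end of the 3' UTR region (grey bar) at each locus, with bars as wide as the peaks, dotted lines at the window ends and triangles over H3K9me3 peaks that overlapped both MOAs. MOA peaks are sparse at KCNK9 (5 and 4) and cover a long stretch above COPG2, whereas H3K9me3 has 12 or 13 peaks at each locus.

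The score of a peak is the negative log10 of its p-value from the peak finder MACS, multiplied by 10, where 50 stands for 1e-05. Scores rest on the depth of a library and were compared only within a list. Scores pile up from 3100 upwards, which is treated as a ceiling. The H3K4me3 and H3K9Ac lists start at a score of 50, whereas the H3K9me3 and H3K27me3 lists reach down to 30, which stands for 0.001.

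At KCNK9 the MOAs formed a few separate sites. An H3K4me3 peak from 421667335 to 421674428, 7094 bases wide and at the ceiling, held H3K9Ac between 421671957 and 421674330 (score 814). The H3K4me3 peak covered the whole 3' UTR region of the neighbouring candidate without a symbol, and the H3K9Ac peak a part of it. Nearer to KCNK9, a pair of moderate peaks lay 18.4 kb below the region, with scores of 385 for H3K4me3 (above 64.1% of its list) and 216 for H3K9Ac (above 49.1%). A weaker pair lay 36.9 and 36.8 kb below it, with scores of 166 and 71.4. Above the region, H3K4me3 had a weak peak at 107 kb with a score of 59.8, above 6.54% of its list. At 191 kb it had a peak at the ceiling from 421947063 to 421953485, 6423 bases wide. The H3K9Ac peak inside this last one was 1161 bases wide with a score of 71.8, above 12.8% of its list.

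The repressive peaks of KCNK9 were placed unevenly, with 10 of 12 H3K9me3 peaks below the region. Their scores ran from 32.4 to 232 with a median of 81.0, and 8 of the 12 exceeded the median of the H3K9me3 list, 53.3. The strongest, from 421683059 to 421686685, was 3627 bases wide and stood above 96.2% of the list. It wholly contained an H3K27me3 peak of 2356 bases with a score of 62.6. The other 3 H3K27me3 peaks were above the region. The strongest of them ran from 421942069 to 421945321 with a score of 109, above 91.4% of its list and the highest of the 15 H3K27me3 peaks of the 3 loci. A second one (score 72.6) followed it up to 421946779, just short of the wide H3K4me3 peak that began at 421947063.

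In the WT1 window the widest MOA peaks lay near the lower end. An H3K4me3 peak from 250086086 to 250102866 (16781 bases) and an H3K9Ac peak from 250086037 to 250102115 (16079 bases) nearly coincided, both at the ceiling. In the lists, 155 of 79412 peaks were wider for H3K4me3 and 37 of 52511 for H3K9Ac. This domain contained the 3' UTR region of ADM and not that of WT1. Just below it lay another H3K4me3 peak at the ceiling, from 250079035 to 250085782, with an H3K9Ac peak of score 1110.

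Closer to the WT1 region the MOAs again came in pairs. A pair 30.3 and 30.4 kb above it had an H3K4me3 score at the ceiling, from 250301423 to 250304661, and an H3K9Ac score of 1460. A pair 66.2 and 67.1 kb below it had scores of 2245 and 394, and one 57.9 and 58.0 kb below it 498 and 182. The H3K4me3 peak nearest to the region had a score of 161 and no other mark. In all, 7 of the 14 H3K4me3 peaks overlapped no other mark, and these had scores of at most 211. The other 7 overlapped H3K9Ac, against 57.1% of the H3K4me3 list. At COPG2, 11 of 21 H3K4me3 peaks likewise overlapped no other mark. The share of the whole H3K4me3 list without any other mark was not computed, so nothing is read from either count. None of the MOA peaks within 100000 bases of the WT1 region overlapped an H3K9me3 peak. Such overlap was rare in the whole lists, where 6116 of 159734 H3K9me3 peaks (3.83%) overlapped any H3K4me3 peak. Nothing is therefore read from its absence here.

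H3K9me3 scores at WT1 ran from 32.9 to 192, with a median of 63.3 that was the lowest of the 3 loci (81.0 at KCNK9 and 140 at COPG2). The strongest peak, from 250385128 to 250386870, lay 114 kb above the region, above 94.6% of its list, and wholly contained an H3K27me3 peak of 1113 bases whose score of 30.2 is near the floor of that list. The H3K27me3 peaks here, scores 30.2 to 44.3, were all below the median of their list, 44.5. A further H3K9me3 peak, from 250073581 to 250076086 (score 96.9), shared 1372 bases with an H3K4me3 peak of score 464 and none with H3K9Ac. The widest H3K9me3 peak, 2713 bases with a score of 73.5, overlapped nothing.

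COPG2 had the widest MOA peaks of the 3 loci, at the upper end of its window. One H3K4me3 peak from 190620295 to 190660618 was 40324 bases wide, and 7 of the 79412 H3K4me3 peaks were wider. Another, from 190662384 to 190691405, was 29022 bases wide with 18 wider in the list, and runs out of the window. Within them lay H3K9Ac peaks from 190630770 to 190654269 (23500 bases, with 7 of 52511 wider) and from 190664861 to 190668975, and all these peaks were at the ceiling. When H3K4me3 peaks up to 3000 bases apart were joined, a distance chosen after the peaks were seen, 7 peaks formed a stretch of 87.4 kb from 190603969 to 190691405. H3K4me3 covered 96.2% of it and H3K9Ac 60.0%. Of 61111 stretches joined in this way across the assembly, 1 was longer, a rank that depends on the distance. With 1000 or 2000 bases the stretch was 71.1 kb and 0 or 1 were longer, and with 5000 or 10000 bases it was 118 kb and 1 or 27 were longer. In the mMonDom1 order the microRNA genes MIR29A-1 and MIR29B-1 follow COPG2 and TSGA13, but no gene was placed on this stretch.

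Nearer to COPG2 the MOA peaks came in separate pairs. Above the region, H3K4me3 from 190510095 to 190513877 (score 1719, above 87.7% of its list) and H3K9Ac from 190510565 to 190513333 (score 706) lay 44.7 and 45.1 kb away. Below it, pairs lay 26.1 to 30.1 kb away, from 190431616 to 190434858 for H3K4me3 (score 2592) with H3K9Ac at 408, and from 190435483 to 190438337 (score 1439) with H3K9Ac at 258. MEST is the next gene on one side of COPG2 in the mMonDom1 order, and the sites of its promoter were not placed here. Farther below it, 51.6 and 52.7 kb away, H3K4me3 from 190407140 to 190412797 was 5658 bases wide, wider than 93.5% of its list, with a score of 1107, and H3K9Ac from 190408581 to 190411701 had a score of 691. A pair 103 and 104 kb below the region had the reverse balance, with an H3K9Ac score of 850 (above 80.0% of its list) and an H3K4me3 score of 201 (above 46.7%). The narrowest member of all, an H3K4me3 peak of 570 bases with a score of 103, lay 92.0 kb below the region.

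MORs at COPG2 lay unevenly around the region. Below it, all 4 H3K9me3 peaks lay between 179 and 189 kb away. The strongest of them, from 190277960 to 190282221, was 4262 bases wide with a score of 351, above 98.3% of its list and the highest H3K9me3 score of the 3 loci. It overlapped H3K27me3 peaks with scores of 47.5 and 38.2, and another, with a score of 30.3, shared 246 bases with the H3K9me3 peak next to it. Above the region, H3K9me3 peaks with scores of 224 and 259 lay 73.9 and 79.1 kb away. The second of them shared 1211 bases with the strongest H3K27me3 peak of the locus, from 190543663 to 190545704 with a score of 60.6. It was the single one of the 8 H3K27me3 peaks at COPG2 with a score of at least 50.

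H3K9me3 peaks that overlapped both MOAs numbered 2 at each locus within 200000 bases. The equal count depended on the distance and on the overlap asked for. At KCNK9, WT1 and COPG2 there were 1, 0 and 1 within 100000 bases and 2, 4 and 4 within 400000 bases, and 0, 2 and 1 when each MOA had to cover 0.5 of the peak. Over the 3 loci these were 6 of 37 H3K9me3 peaks (16.2%, exact 95% binomial interval 6.19% to 32.0%), against 0.973% of the whole H3K9me3 list, and 7 of 37 overlapped H3K4me3, against 3.83%. As the genes were chosen by the study for such marking, nothing is read from this difference. Intervals cover counting error only and treat neighbouring peaks as independent.

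The extent of overlap differed among the 6 peaks. The KCNK9 peak from 421669707 to 421672741 (score 156) lay wholly inside H3K4me3, shared 785 bases (25.9%) with all 3 marks and covered the whole 3' UTR region of the candidate without a symbol. The other KCNK9 peak, from 421952752 to 421955724 (score 174), lay at the end of the H3K4me3 peak 191 kb away, and all 3 marks shared 182 bases, 6.12% of it. At WT1 the peak from 250081806 to 250082742 had a score of 34.8 and 59.1% of it was shared. The peak from 250096552 to 250098001 (score 63.3) lay wholly inside both MOAs, and it overlapped the 3' UTR region of ADM. At COPG2 the peak from 190512978 to 190515141 (score 149) was at the edge of the pair 45.1 kb above the region, with 356 bases (16.5%) shared. The peak from 190641031 to 190643398 (score 185) lay wholly inside both MOAs, within the domain of 40324 bases. Among the 1555 H3K9me3 peaks of the list that overlapped both MOAs, median score 70.5, the KCNK9 and COPG2 peaks stood above 77.5% to 83.2%, and the stronger of the WT1 pair above 44.5%. Of the 1555, 1397 scored higher than the weaker WT1 peak.

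**Figure D2:**
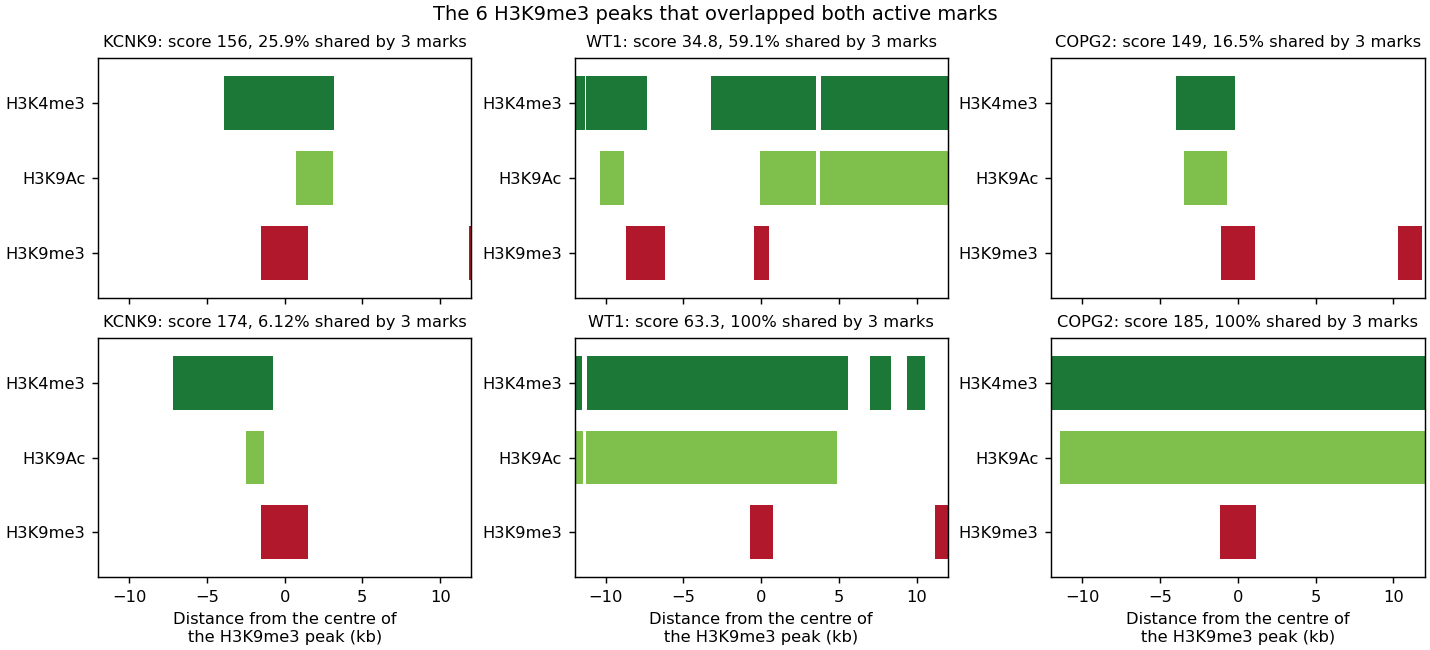
The 6 H3K9me3 peaks that overlapped both MOAs, 2 for each locus in a column, with H3K4me3, H3K9Ac and H3K9me3 peaks drawn as bars by distance in kb from the centre of the H3K9me3 peak. At KCNK9 and in the upper COPG2 panel all 3 marks share 6.12% to 25.9% of the H3K9me3 peak, and in the lower WT1 and COPG2 panels it lies wholly inside both.

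H3K27me3 and the MOAs did not overlap at the 3 loci. None of the 15 H3K27me3 peaks overlapped H3K4me3 or H3K9Ac (exact 95% interval 0% to 21.8%), whereas 13.3% of the H3K27me3 list overlapped H3K4me3. This background lies within the interval, so a lower rate was not detectable with 15 peaks. The share of the list that overlapped H3K9Ac was not computed, so nothing is read from the absence of that overlap. Of these peaks, 7 (46.7%, interval 21.3% to 73.4%) overlapped H3K9me3, with 1 at KCNK9, 2 at WT1 and 4 at COPG2, against 53.3% of the list. All 25 H3K9Ac peaks overlapped H3K4me3, against 90.0% of the H3K9Ac list, and 21 of 40 H3K4me3 peaks (52.5%) overlapped H3K9Ac, against 57.1%. Peaks at the score ceiling made up 7 of 40 for H3K4me3 (17.5%, interval 7.34% to 32.8%), against 7.35% of the list, and 3 of 25 for H3K9Ac (12%, interval 2.55% to 31.2%), against 2.62%. The study chose these genes, and other candidates in the windows, for MOA peaks in these libraries. Nothing is therefore read from the shares at the ceiling.

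The ranks of the peaks in their own lists were counted for each mark. For H3K4me3, 20 of 40 exceeded the median score of their list and 21 of 40 its median width. For H3K9Ac these numbers were 15 and 15 of 25. For H3K9me3, 24 of 37 exceeded the median score and 22 of 37 the median width, and the median member had a score above 71.6% of the list. H3K27me3 members were the lowest, with 6 of 15 above the median score and 3 of 15 above the median width.

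**Figure D3:**
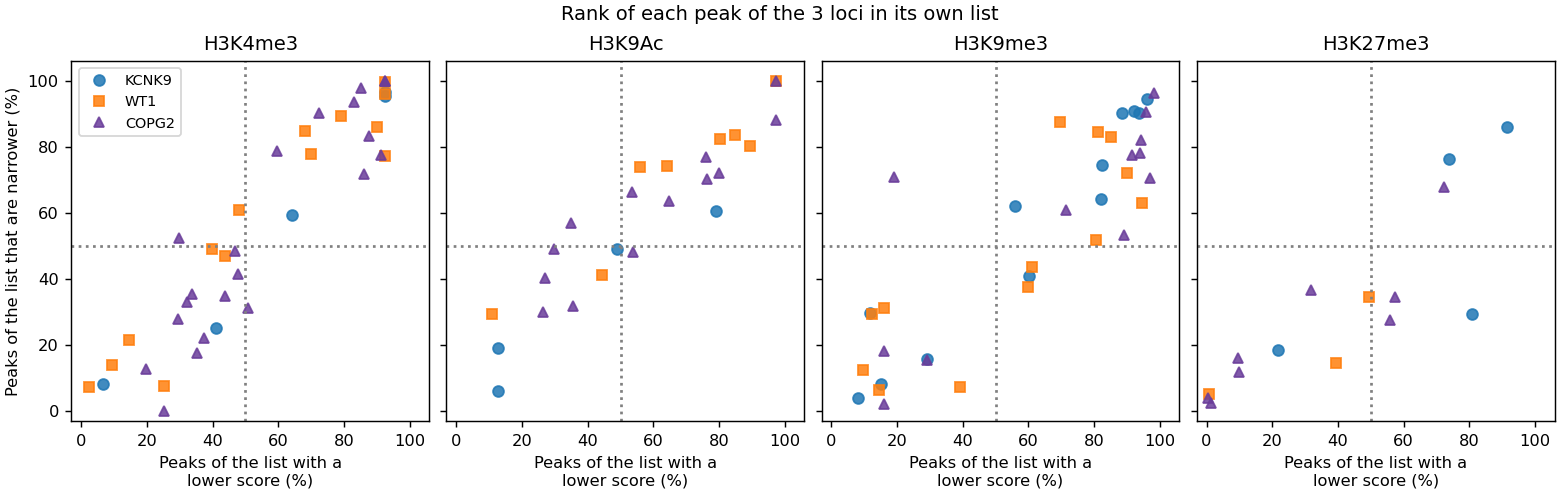
Each peak of the 3 loci by the percentage of its own list with a lower score (x axis) and the percentage that is narrower (y axis), with a panel per mark, a symbol per locus and dotted lines at the middle of the list. H3K4me3 peaks spread over the whole range, and 12 of 15 H3K27me3 peaks lie at or below the middle in width.

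Against windows of the same length laid end to end over the assembly (8987 windows), COPG2 ranked high in MOAs and KCNK9 near the middle. Windows with at least as many H3K4me3 peaks made up 60.7% for KCNK9, 27.2% for WT1 and 10.4% for COPG2, and for H3K9Ac 52.9%, 33.0% and 15.3%. In H3K4me3 coverage, 1.68% of windows had at least the value of COPG2, against 12.6% for WT1 and 47.1% for KCNK9. The number of H3K9me3 peaks was near the median window (11 peaks) at every locus, with 43.1% to 47.1% of windows having at least as many. For H3K27me3, with a median of 1 peak per window, the shares were 15.1% for KCNK9, 21.9% for WT1 and 4.62% for COPG2, although 7 of the 8 COPG2 peaks had scores below 50. Windows with 2 or more H3K9me3 peaks that overlapped both MOAs, as at each locus, made up 2.87%. These windows were not chosen for the marks, unlike the 3 genes.

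**Figure D4:**
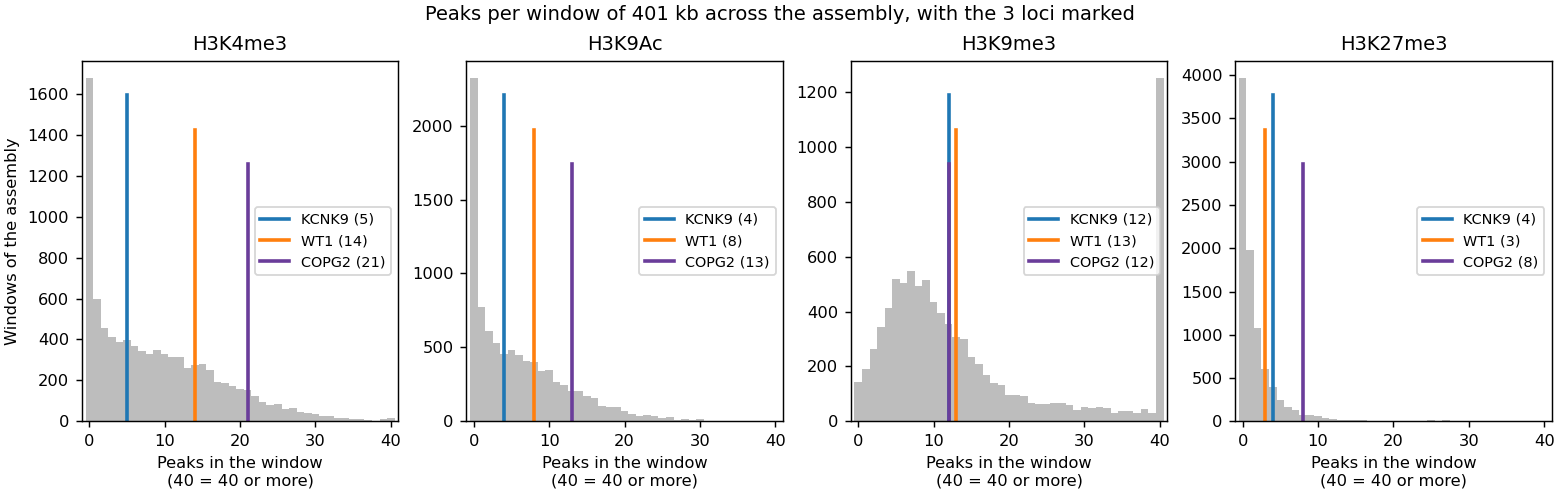
Number of windows (y axis) by the number of peaks they hold (x axis, 40 stands for 40 or more) for each mark, in grey, with a coloured line at the count of each locus, whose height carries no value. The H3K4me3 lines lie at 5, 14 and 21 peaks, whereas the H3K9me3 lines lie together at 12 or 13.

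The same windows around the 178 candidates gave another comparison, on genes chosen for the same marks. KCNK9 was among those with the fewest MOA peaks, as 169 candidates had more H3K4me3 peaks and 3 had fewer (median 17). At WT1 104 candidates had more, and at COPG2 47. For H3K9me3 peaks that overlapped both MOAs, 37 candidates had 2, these 3 included, 19 had more and 122 had fewer. COPG2 was high in H3K27me3, with 12 candidates above its 8 peaks and a median of 2. IGF2R is the growth factor receptor gene that is imprinted in the opossum. Its window had 11 H3K4me3, 11 H3K9Ac, 4 H3K9me3 and 1 H3K27me3 peaks. It held no H3K9me3 peak that overlapped both MOAs, and the same was true of 22 of the 178 candidates. Of the 8987 windows laid over the assembly, 1165 held any such peak. The study had already reported that IGF2R lacked overlapping enrichment of MOAs and H3K9me3. Nothing is therefore read from the absence at IGF2R. These counts come from the same libraries and have no replicate error.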

How the data were processed

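Peaks came from 1 native ChIP-seq library for each of 4 antibodies and 1 input library, all from fibroblasts of a single male. The authors filtered reads for quality, aligned them to MonDom5 by Bowtie (seed of 28 bases, at most 2 mismatches, best alignment kept) and ran MACS on every ChIP library with the input as control. The submitters' processing notes name CASAVA 1.7, Bowtie 1.1.2 and MACS 1.0.1. The deposited lists give a position and a score per peak, the negative log10 of the MACS p-value multiplied by 10. They hold no read counts, and the read numbers that the study gives per library were not used here. The effect of depth on scores and peak numbers was therefore not tested.

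Lists were read with Python 3.11.15 and pandas 2.3.3, and starts were changed to count from 1, with 2 negative starts set to 0 first. Every deposited peak was kept, and a single shared base counted as an overlap. Simulated peaks and bedtools 2.31.1 served to check these overlaps. Peaks described singly were the strongest, widest and nearest of each mark at a locus and every MOR peak that shared a base with an MOA, with others added after their values were seen. Members, gene lists and alternatives were chosen with earlier results of these data known. Positions of 3' UTR regions came from the study's list of candidates, gene order from RefSeq (mMonDom1), where each of the 3 symbols matched 1 gene. No sequence of these loci was used here.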

Additional observations from a re-analysis of the deposited data

How the results depend on the processing

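The 13 results were recomputed in 49 ways, and 28 of these values moved while 21 did not. A count was taken as moved beyond a factor of 1.5, and a share of windows when it left its 95% binomial interval. A longer or shorter distance changes a count of peaks by the size of the window alone. The windows are all those laid over the assembly, so their interval is only a yardstick. The tally is therefore no measure of how stable the results are. With a distance of 100000 bases, KCNK9, WT1 and COPG2 had 12, 11 and 23 peaks, and with 400000 bases 51, 115 and 110. With scores of at least 100, KCNK9 had 12 peaks and WT1 21. H3K9me3 peaks that overlapped both MOAs numbered 1 at KCNK9, 0 at WT1 and 1 at COPG2 within 100000 bases, and 4 at WT1 and 4 at COPG2 within 400000 bases. At WT1 1 such peak was left with scores of at least 50 and 0 with scores of at least 100, and at KCNK9 1 with scores of at least 100, as the H3K9Ac peak there had a score of 71.8. When 0.5 of the H3K9me3 peak had to be covered by each MOA, 0 were left at KCNK9 and 1 at COPG2, and when all of it had to be covered, 0 at KCNK9, 1 at WT1 and 1 at COPG2. Shares of windows with at least as many H3K4me3 peaks were 59.0% for KCNK9, 25.5% for WT1 and 5.15% for COPG2 at scores of at least 100, and for H3K9me3 43.0% for KCNK9 and COPG2 at scores of at least 50. Joining distances for the H3K4me3 stretch above COPG2 were chosen after seeing the data, and 0 stretches were longer with 1000 bases and 27 with 10000 bases, against 1 with 3000. No paired analysis was possible because each antibody had a single library. Some peaks lay just outside the windows, among them H3K4me3 at 203 kb (score 662) and H3K9Ac at 204 kb (score 133) from WT1, H3K9Ac at 205 kb (score 1183) from COPG2, and H3K27me3 at 202 kb (score 59.2) from KCNK9.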
